A study of Mus musculus with 24 samples.

Results

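The miR-290 to miR-295 cluster is a group of embryonic mouse microRNAs, and its mature forms were followed here in eyes made myopic by blurred vision. Members were taken by name, as every array target whose mouse name begins with miR-290, miR-291, miR-292, miR-293, miR-294 or miR-295. This gave 14 mature forms of the 696 mouse microRNAs on the array. The cluster was chosen by measured values of these same data, namely the scaled signals of miR-294-3p in whole eye with myopia set against control whole eye, and of miR-290-5p in whole eye set against retina and sclera. Those 3 contrasts are therefore described for the members without a test.

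All mice were C57BL/6J, and eyes were collected at 34 days of age after a frosted diffuser had covered the right eye for 10 days from postnatal day 24, while the open left eye of each animal was the control. The 24 arrays held whole eye with myopia (6), whole eye control (6), retina titled myopia (3), retina titled control (3), sclera titled myopia (3) and sclera titled control (3). The whole eye arms were taken from title, source name and phenotype, which match, although the description gives each array the other arm. In retina and sclera the title and the source name with phenotype contradict each other. Title was followed, so the direction of every arm difference in these tissues is unsettled and would turn sign under the other labels. Whole eye RNA came from 6 mice, retina RNA from 9 and sclera RNA from 9, of a total of 15. The labels do not say whether an array held 1 animal or a pool, so p-values measure only the spread between these samples.

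MicroRNAs are short RNAs that lower the output of messenger RNAs, and they recognise targets mainly through the seed, bases 2 to 8 from the 5′ end. The miR-290 to miR-295 cluster is made as a single long transcript in mouse embryonic stem cells and the early embryo, where its 3p forms are known to support rapid division and the pluripotent state. It is largely silenced as cells differentiate, while the let-7 family, which opposes it, accumulates. The 5p and 3p forms come from opposite arms of the same hairpin and usually differ in how much of each is kept.

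RefSeq holds a mature sequence for 13 of the 14 members, all on the plus strand of chromosome 7 in build GRCm38.p6, within 2199 bases from 3218639 to 3220837. The array names miR-290 and miR-292 correspond to RefSeq miR-290a and miR-292a, and the probes of all 13 pair with these sequences. miR-292-3p is named only. The forms that the results turn on are shown first with the seed in capitals.
miR-294-3p: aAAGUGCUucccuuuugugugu
miR-291a-3p: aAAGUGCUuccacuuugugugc
miR-295-3p: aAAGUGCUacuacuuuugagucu
miR-290-3p: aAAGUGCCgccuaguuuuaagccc
miR-290-5p: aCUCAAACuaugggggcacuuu
miR-291a-5p: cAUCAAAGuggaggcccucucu
miR-291b-5p: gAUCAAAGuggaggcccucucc

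The 13 sequences fall into 8 seed groups. The seed AAGUGCU is shared by miR-294-3p (chr7:3220691-3220712), miR-291a-3p (chr7:3218968-3218989) and miR-295-3p (chr7:3220815-3220837). The seed CUCAAAC is shared by miR-290-5p (chr7:3218639-3218660), miR-292-5p and miR-293-5p. miR-291a-5p (chr7:3218932-3218953) and miR-291b-5p (chr7:3219494-3219515) share the seed AUCAAAG and differ by C1G and U22C, with positions counted from the 5′ end and the base of miR-291a-5p given first.

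Signal was read as the intensity summed over the probes of a microRNA after the scanner software subtracted background, in arbitrary units, so a value near or below 0 is background. For comparisons each array's signals were scaled to the 75th percentile of its microRNAs found on all 24 arrays, then taken to log2, so that 0 on this scaled scale is that percentile, with a floor at -7.69. The percentile itself was 1584 to 2236 in retina, 1125 to 1741 in whole eye and 424 to 1255 in sclera, where titled control replicate 3 had the lowest value. Between 274 and 401 microRNAs were detected per array. Tissue markers followed the labels: the neural miR-124-3p averaged 6.42 in retina, 5.39 in whole eye and 1.78 in sclera on the log2 scaled scale, and the fibroblast miR-214-3p averaged -7.67, -3.38 and 0.08 in the same order, although all 5 retina markers were detected on every sclera array. In tissue RNA, fewer cells of a type and less RNA per cell cannot be told apart.

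Most forms of the cluster were not called detected in any eye tissue. The scanner software called 8 of the 14 members detected on no array (57.1%), against 241 of all 696 microRNAs (34.6%). The other 6 members differed widely in where they were found. miR-290-3p and miR-291b-5p were detected on all 24 arrays, miR-290-5p on 15, miR-294-3p on 12, miR-291a-3p on 5 and miR-293-5p on 1. Of all 696 microRNAs, 237 were detected on all 24 arrays. The sister forms of the same hairpins mostly lay at background: miR-294-5p was detected nowhere while miR-294-3p reached a signal of 621, and miR-291b-3p was detected nowhere while miR-291b-5p was detected everywhere. Of the 3 forms with the seed AAGUGCU, miR-295-3p was detected on no array.

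**Figure D1:**
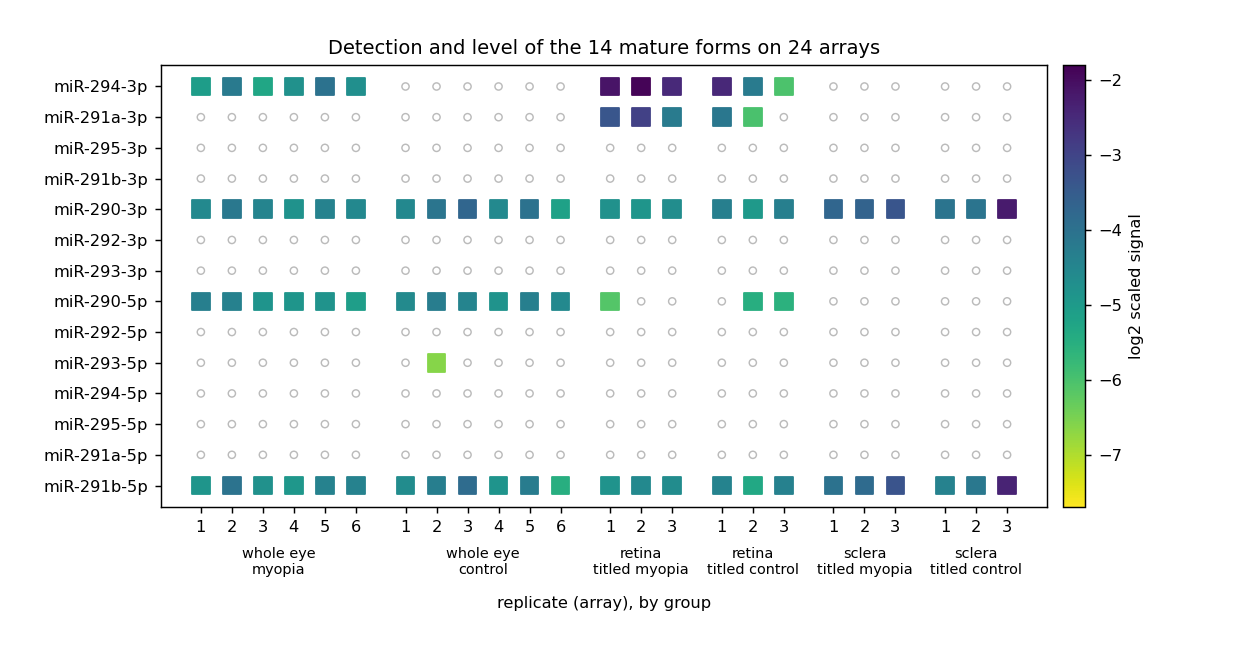
Detection of the 14 members (rows, 3p forms above, 5p forms below) on 24 arrays (columns, by group and replicate). Squares are arrays on which the scanner software called the form detected, coloured by log2 scaled signal, and small open circles are arrays on which it did not. miR-290-3p and miR-291b-5p fill all 24 columns, miR-294-3p fills whole eye with myopia and retina, and 8 rows are empty.

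miR-294-3p, one of the abundant 3p forms in embryonic stem cells, had its highest signals on the retina titled myopia arrays, lower signals in whole eye with myopia, and a wide range on the retina titled control arrays. It was not called detected in whole eye control or sclera. Its summed signal in whole eye with myopia had a lowest value of 31.0, a median of 54.0 and a highest value of 78.8, against 7.06, 10.8 and 12.03 in whole eye control. It was detected on 6 of 6 whole eye arrays with myopia and on 0 of 6 control arrays, and the groups did not overlap. In retina it was 410, 621 and 283 on the titled myopia arrays, against 296, 89.7 and 27.3 on the titled control arrays. All 6 retina arrays were called detected, and the titled arms overlapped because titled control replicate 1 lay above titled myopia replicate 3. In sclera it was 5.11, 6.50 and 2.24 on titled myopia arrays, against 8.87, 5.01 and 10.5 on titled control arrays, with none called detected.

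In whole eye, miR-294-3p had a log2 scaled level of -4.68 ± 0.49 with myopia and -7.06 ± 0.49 in control (SD, n = 6 each). Fitted on the whole eye arrays alone, the difference was 2.29 on the log2 scale (4.90-fold, with low control values raised to the floor). With every control array undetected the bound by each array's own lowest detected signal was at least 5.0-fold higher with myopia. The difference was 0.35 with normexp and 1.33 in the authors' deposited table. The normexp background correction added an offset of 50 to every spot before probes were summed, which shrinks log2 differences between dim signals. The bound is the mean of the myopia arrays over the mean, per control array, of its own signal or the lowest signal called detected there, whichever was higher. Over all microRNAs tested in this contrast, 35 of 341 (10.3%) were higher with myopia and 0 lower (limma, adjusted p under 0.05; 2 were lower at an unadjusted p under 0.05). On the scaling of all 24 arrays, 7.04% of 426 microRNAs had every myopia array above every control array. Each of the 3 probes of miR-294-3p had all 6 myopia arrays above all 6 control arrays. Within the 3 slides, each of which held 2 arrays of either arm, the difference was 2.46, 2.50 and 2.17. The array's bright corner control spots moved in the same direction, at 226, 288 and 487 (lowest, median, highest) with myopia and 137, 149 and 230 in control, and their part in the result was not tested.

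miR-291a-3p, which shares the seed AAGUGCU, followed miR-294-3p at lower signal. In retina its summed signal was 171, 291.3 and 83.8 on the titled myopia arrays, against 91.7, 26.4 and 2.92 on the titled control arrays, and 5 of 6 retina arrays were called detected. The titled arms overlapped on 1 array, titled control replicate 1. In whole eye with myopia the signal was 7.34, 9.04 and 13.9 (lowest, median, highest), against -0.54, 0.58 and 3.90 in whole eye control, with none of the 12 called detected. A probe stood above 3 times its error on 6 of 6 whole eye arrays with myopia and on 0 of 6 control arrays. The share of all microRNAs with such a split was not counted. The signals of the arms lay near background and did not overlap. After scaling, with the control arrays at the floor, they did not either, as for 7.04% of 426 microRNAs. Only 1 of its 3 probes had every myopia array above every control array. In sclera the signal stayed between 0.30 and 3.15.

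**Figure D2:**
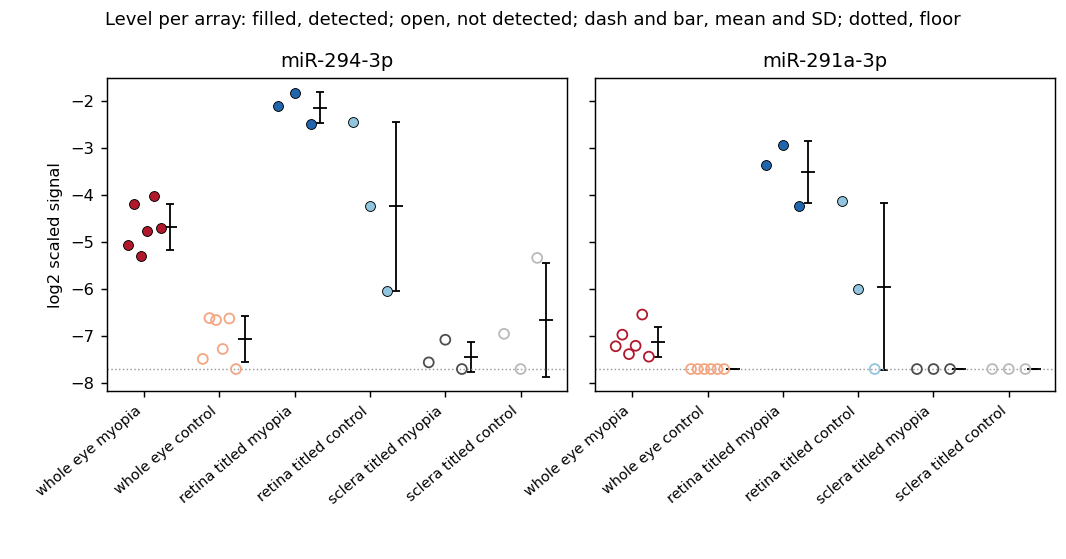
Log2 scaled signal of miR-294-3p (left) and miR-291a-3p (right) on each array by group. Filled points were called detected and open points not, the dash and bar give the mean and SD of the group, and the dotted line is the floor. Retina titled myopia lies highest for both, whole eye with myopia lies above whole eye control, and retina titled control spreads from near the titled myopia arrays towards the sclera level.

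Retina and sclera were set against each other next, a comparison that does not depend on which arm is which and was not used to pick the members. A microRNA entered a test when 2 of every 3 arrays of some group, or more, called it present, which 5 members did here, 4 in whole eye alone, 5 in retina alone and 2 in sclera alone. miR-291a-3p entered only through retina, where it is high, so its difference from sclera is described without a test. Of the other 4 members, 1 was higher in retina and 2 lower, against 58.7% of all 426 microRNAs tested higher and 30.5% lower. miR-294-3p averaged -3.19 ± 1.62 in retina and -7.05 ± 0.90 in sclera on the log2 scaled scale (SD, n = 6 each), a difference of 3.86 (SE 0.45, adjusted p = 9.09e-08, limma). With no sclera array called detected, it was at least 14.2-fold higher in retina by this scaling. miR-291a-3p averaged -4.73 ± 1.79 in retina and lay at the floor on all 6 sclera arrays. The unscaled signals of miR-294-3p did not overlap, since the lowest retina array (27.3) lay above the highest sclera array (10.5), as was so for 59.9% of the 426 microRNAs. On the scaled scale they overlapped, because retina titled control replicate 3 (-6.03) lay under sclera titled control replicate 3 (-5.34). In the same scaled values 44.6% of the 426 microRNAs had every retina array above every sclera array. Within the 3 slides the difference of miR-294-3p was 4.97, 4.34 and 2.26.

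The median difference of all 426 microRNAs was 0.81, and miR-294-3p stood above it by 3.05. Under a normexp background correction the median of all microRNAs was -0.87 and miR-294-3p turned sign, to -0.30 (limma, adjusted p = 0.407). There the offset of 50 per spot is divided by each array's own percentile, so it can weigh differently by tissue. In the authors' deposited table of log2 values its difference was 1.70 (limma, adjusted p = 9.40e-05). Over 33 alternatives its adjusted p ran from 1.13e-10 to 0.407. The split of 250 higher and 130 lower calls also moved, to 68 and 244 with normexp, 197 and 168 with quantile normalization, 181 and 173 with the percentile taken over all microRNAs, 182 and 164 in the authors' table, and 304 and 62 without scaling. Bright corner spots had signals of 196 to 576 in retina and 104 to 163 in sclera, and their part in the difference was not tested.

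The arms of retina and sclera gave no call for any member. In retina, 0 of 396 microRNAs (0%) passed limma's threshold and 20 had an unadjusted p under 0.05, and in sclera 0 of 311 (0%) passed and 7 had an unadjusted p under 0.05. For miR-294-3p in retina the titled myopia arrays lay above titled control by 2.04 on the log2 scale (SE 0.89, limma, adjusted p = 0.537), and for miR-291a-3p by 2.89 (SE 1.32, adjusted p = 0.537). These differences would be -2.04 and -2.89 by the source names. By slide, the single pairs differed by 0.34, 2.39 and 3.54 for miR-294-3p, so the first slide, with titled control replicate 1, differed least. Without that array the difference of miR-294-3p was 2.83 (limma, adjusted p = 0.0510), and of all 396 microRNAs tested 52 were higher and 3 lower. That of miR-291a-3p was 3.95, given without a test, since it then entered only through the titled myopia arrays, where it is high. In a fit of all 24 arrays that shares the spread over groups, 51 of 426 microRNAs were called in retina, 0 of them lower. Both forms were among the 51, miR-294-3p at 2.09 (adjusted p = 0.0392) and miR-291a-3p at 2.43 (adjusted p = 0.00513, limma). That spread includes floored groups: the SD of miR-291a-3p was 0 in whole eye control and both sclera groups. It was 0.66 in retina titled myopia and 1.78 in retina titled control, so this p-value does not measure the retina spread. Over 16 alternatives the adjusted p reached 0.983 for each. The bright corner spots read 487, 576 and 373 on the titled myopia arrays, against 451, 196 and 248 on the titled control arrays, and their part was not tested.

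The difference between the titled arm effects of retina and sclera was 2.87 for miR-294-3p (SE 0.91) and 2.43 for miR-291a-3p (SE 0.73), and neither passed (limma, adjusted p = 0.0907 for both), while 7 of all 426 microRNAs (1.64%) did. Without retina titled control replicate 1, miR-294-3p passed at 3.77 (limma, adjusted p = 9.45e-04). The value of miR-291a-3p was then 3.31, without a test, since it entered only through the retina titled myopia arrays, where it is high. Over 33 alternatives the adjusted p of miR-294-3p reached 0.9995 (limma). It was called detected on no sclera array, and these fits share the spread over groups. The p-values here thus do not measure the retina spread alone. In sclera only miR-290-3p and miR-291b-5p could be tested between titled arms. Their differences were 0.06 (SE 0.46) and 0.08 (SE 0.50), with adjusted p = 0.999 for both (limma).

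miR-290-5p, the form from the other arm of the hairpin that gives miR-290-3p, had its highest summed signal in whole eye. Its summed signal was 41.3, 47.6 and 61.4 (lowest, median, highest) in whole eye with myopia and 51.4, 57.2 and 72.4 in whole eye control, and all 12 arrays were called detected. In retina it was 25.3, 38.9 and 31.7 on titled myopia arrays, against 26.4, 37.2 and 37.5 on titled control arrays, with 3 of 6 called detected. In sclera it was 16.6, 16.8 and 18.2 on titled myopia arrays, against 18.3, 17.7 and 9.39 on titled control arrays, with none called detected. The unscaled signals of the 3 tissues thus did not overlap, with whole eye highest and sclera lowest. Of the 426 microRNAs, 3.52% had every whole eye array above every retina and sclera array in this way. None of the 4 probes alone had every whole eye array above every retina and sclera array, because some retina arrays reached into the whole eye range.

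On the log2 scaled scale miR-290-5p averaged -4.62 ± 0.27 in whole eye (SD, n = 12), -5.77 ± 0.24 in retina and -5.73 ± 0.31 in sclera (n = 6 each). Whole eye lay above retina by 1.15 and above sclera by 1.11, in contrasts where all tested microRNAs had medians of -0.70 and 0.15. By this scaling the level was 2.15-fold higher in whole eye than in sclera. That is the measured difference and not a bound. The sclera signals, though not called detected, were not below the lowest signals called detected on their arrays. With normexp whole eye minus sclera was -1.03, where the median of all microRNAs was -0.997, and it was 0.11 in the authors' deposited table. Whole eye minus retina was 0.33 with normexp. In those contrasts 23% of 426 microRNAs were called higher and 65% lower in whole eye than in retina, and 40.1% higher and 30.8% lower than in sclera. By slide the difference from retina was 1.37, 1.22 and 0.86, and that from sclera 1.22, 1.47 and 0.63. Between retina and sclera the scaled levels differed by -0.04 (SE 0.15, limma, adjusted p = 0.786), but this value depended on the scaling. Without scaling retina was higher by 1.04 (adjusted p = 7.07e-06), and with the percentile over all microRNAs it was lower by -0.83 (adjusted p = 1.46e-04, limma), with adjusted p-values up to 1 among 33 alternatives. Between the whole eye arms the difference was -0.12, and the arms overlapped. Between the retina titled arms it was -0.25 (SE 0.24, limma, adjusted p = 0.826).

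miR-290-3p, whose seed is AAGUGCC, and miR-291b-5p were the only members that the scanner software called detected on every array. The summed signal of miR-290-3p ran from 46.9 to 84.7 in whole eye, 53.9 to 89.3 in retina and 64.9 to 90.4 in sclera. That of miR-291b-5p ran from 38.3 to 77.9 in whole eye, 41.7 to 93.8 in retina and 51.5 to 81.9 in sclera. The unscaled signals of the 3 tissues overlapped, while the near-identical miR-291a-5p never rose above -6.01. After scaling, miR-290-3p was lower in retina than in sclera by -1.14 (SE 0.27, adjusted p = 5.36e-04) and miR-291b-5p by -1.01 (SE 0.31, adjusted p = 0.00462, limma), but without scaling the differences were -0.06 (adjusted p = 0.744) and 0.07 (adjusted p = 0.748). Sclera titled control replicate 3, the array with the lowest scaling percentile, had the highest scaled level of both forms, -2.23 and -2.37. Without it the differences were -0.92 for miR-290-3p and -0.78 for miR-291b-5p. Between the whole eye arms the differences were -0.04 and 0.08, and between the retina titled arms -0.28 (SE 0.16) and -0.02 (SE 0.23), with adjusted p = 0.591 and 0.970 (limma). The probes of miR-291b-5p were 10 to 13 bases long, against 18 to 20 for miR-291a-3p and 19 to 21 for miR-294-3p.

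**Figure D3:**
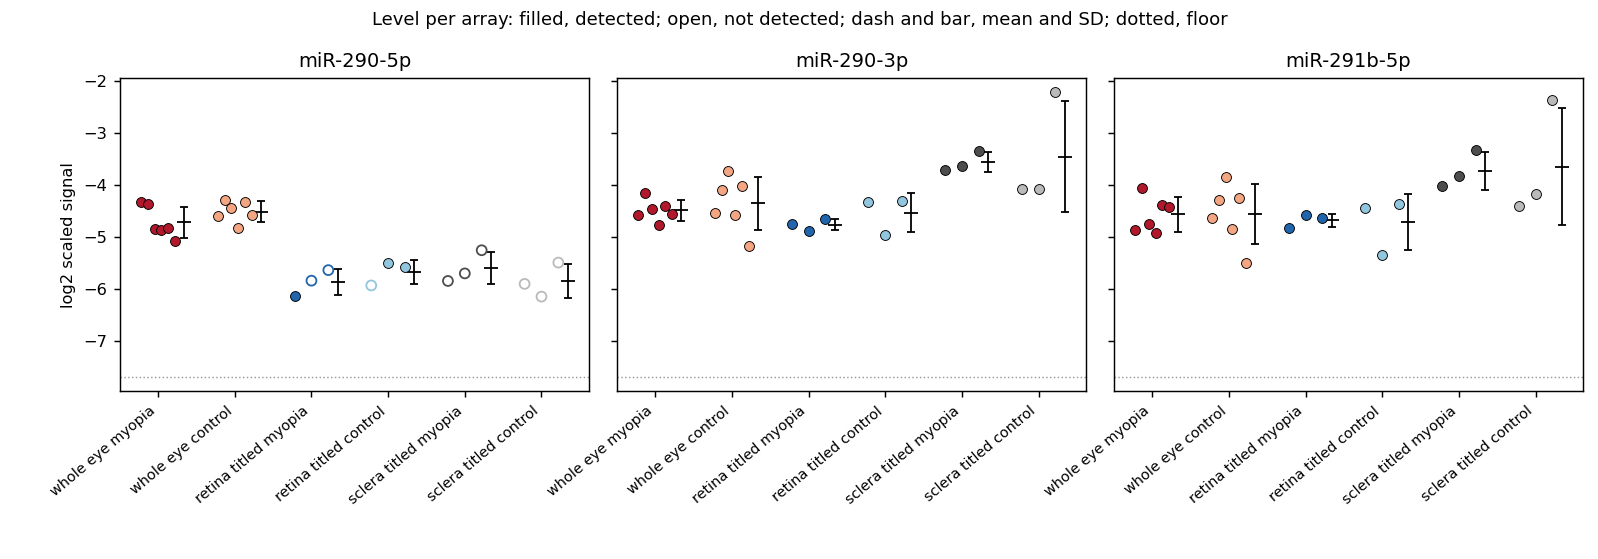
Log2 scaled signal of miR-290-5p, miR-290-3p and miR-291b-5p on each array by group, with filled points called detected, open points not, and the dash and bar giving the group mean and SD. miR-290-5p is highest in whole eye, and for the other 2 forms sclera lies above retina after scaling, with sclera titled control replicate 3 highest.

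The 8 members never called detected had signals between -17.3 and 12.2, with a median of -2.56. These were miR-291a-5p, miR-291b-3p, miR-292-3p, miR-292-5p, miR-293-3p, miR-294-5p, miR-295-3p and miR-295-5p. By the other detection rule, a probe above 3 times its error, miR-290-5p was found on all 24 arrays, sclera included, and miR-294-3p on 18, among them 3 whole eye control and 3 sclera arrays. By that rule miR-295-5p was found on 9 arrays and miR-295-3p on 2, which gave 8 members found on at least 1 array in place of 6. miR-293-5p was detected only on whole eye control replicate 2, where its signal was 11.4. On the other 23 arrays it was not detected, and its lowest signal was -7.34.

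The members fell into separate patterns over the 24 arrays, given here as Pearson correlations of log2 scaled signal that describe arrays sharing tissue, slide and scaling. miR-294-3p correlated with miR-291a-3p at 0.88, and miR-290-3p with miR-291b-5p at 0.97. The 5 microRNAs outside the cluster most like miR-294-3p were miR-466h-5p, miR-669a_v15.0, miR-669b-5p, miR-669e-5p and miR-15a-3p (r = 0.967 to 0.982). Those most like miR-291a-3p were miR-200a-5p, miR-465b-5p, miR-21-3p, miR-696 and miR-466f-5p (0.986 to 0.991). miR-290-5p was most like miR-125b-2-3p, miR-20a-5p, miR-212-3p, miR-31-5p and miR-1198-5p (0.874 to 0.922). Over the 12 whole eye arrays alone it was most like miR-1897-5p (0.949), followed by miR-212-3p, miR-712-5p, miR-1939_v16.0 and miR-1904 (0.735 to 0.825). miR-290-3p and miR-291b-5p had the same 5 nearest microRNAs, miR-702, let-7f-1-3p, miR-92b-3p, let-7b-3p and miR-664-3p (0.924 to 0.991).

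Of the 5 microRNAs most like miR-294-3p, 4 share with it a short stretch of sequence, which was noticed after the values were seen. It is GUGUG in the microRNA and CACAC in the probe. The longest probes of the 2 variable 3p members and of 2 other members are shown with that stretch in capitals.
miR-294-3p probe: aCACACaaaagggaagcactt
miR-291a-3p probe: gCACACaaagtggaagcact
miR-293-5p probe: caaaatgtCACACagtttgagt
miR-295-3p probe: agactcaaaagtagtagcactt

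The letters CACAC were searched in the probes of all 696 microRNAs, and 32 (4.6%) had them, 3 of them members. On the other strand, GTGTG was found in the probes of 29 (4.17%), 1 of them a member, and no microRNA had both. miR-294-3p and miR-291a-3p carry the stretch close to the 3′ end of the microRNA. miR-295-3p does not carry it and was detected on no array. miR-290-3p and miR-291b-5p do not carry it and were detected on all 24 arrays, and miR-290-5p, also without it, on 15. miR-293-5p carries it in its middle part and was detected on 1 array. With the members left out, the 18 tested in whole eye had a median difference of 1.61 between myopia and control, beside 0.08 for all 341. Between the retina titled arms, the 22 tested without members had a median of 1.86, beside -0.07 for all 396, and 0 were called. Between retina and sclera, the 22 had a median of 3.12, beside 0.81 for all 426. Of the 32, 20 were detected on at least 1 whole eye array with myopia and 14 in control. The counts were 27 in retina titled myopia, 23 in retina titled control, 8 in sclera titled myopia and 9 in sclera titled control. Some thus entered only through the group where they are high, which can raise these medians. For that reason no count of higher calls is given for the set. The set was chosen after its values were seen, so no test is given. The 4 microRNAs in which the stretch was noticed, picked for their likeness to miR-294-3p, stayed in the set. Leaving the members out therefore did not remove that choice. Among the 322 tested without the stretch, 21 (6.52%, beside 10.3% of all 341) were called higher in whole eye with myopia. The part of the stretch in these signals was not tested.

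**Figure D4:**
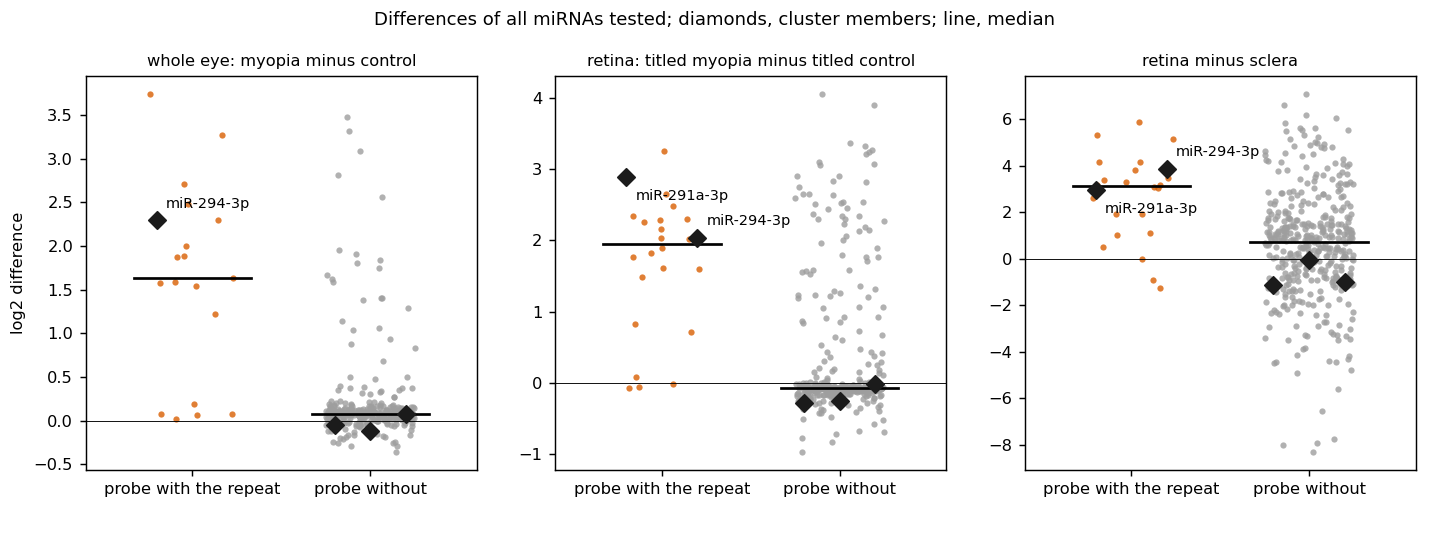
Log2 differences of all tested microRNAs in whole eye (myopia minus control), retina (titled myopia minus titled control) and retina minus sclera, split by whether a probe holds the short repeated stretch. Diamonds are cluster members and horizontal lines are medians. miR-294-3p and miR-291a-3p lie within the spread of the microRNAs with the stretch, while the other tested members lie near 0 or below.

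Related families were followed as context. In the cluster of miR-302 and miR-367, the human and mouse stem cell cluster several of whose 3p forms have the seed AAGUGCU, 4 of 8 forms were detected on no array and none on all. Of all 696 microRNAs, 241 were detected on no array and 237 on all. miR-302b-3p and miR-302d-3p match that seed in RefSeq and were detected on 1 and 0 arrays. miR-302c-5p was detected on 12 arrays, the most of the 8, and averaged -6.22 in whole eye, -2.90 in retina and at the floor of -7.69 in sclera on the log2 scaled scale. It was higher in retina than in sclera by 4.79 (SE 0.76, limma, adjusted p = 6.05e-06). In whole eye its myopia arrays lay above control by 1.67. No test is given there, since it entered only through the myopia arrays, detected on 5 against 1 in control. It correlated with miR-294-3p at 0.92 over the 24 arrays. miR-302a-3p and miR-302c-3p entered the test only through retina, so no count is given for this cluster.

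The miR-17 family, which shares the AAGUGC core at a shifted position and is common in dividing cells, was detected far more widely. It had 4 of 5 forms on all 24 arrays, beside 237 of all 696 microRNAs. miR-20a-5p averaged -0.54 in whole eye, -1.77 in retina and -1.69 in sclera on the log2 scaled scale. Between retina and sclera 1 of 5 was higher (miR-106b-5p, 1.06) and 1 lower (miR-20b-5p, -0.32), beside 58.7% and 30.5% of all 426, with a median of 0.11 beside 0.81. The let-7 family, abundant in differentiated cells, had all 9 forms on all 24 arrays, beside the same 237 of 696. let-7c-5p averaged 3.18 in whole eye, 3.38 in retina and 4.15 in sclera, while miR-98-5p averaged -1.82, -1.18 and -1.63. Between retina and sclera 4 of 9 let-7 forms were higher and 3 lower, with a median of 0.16, against the same shares and median of all microRNAs. Fitted by tissue, no member of these families was called between the arms, where all microRNAs tested had medians of 0.08 in whole eye, -0.07 in retina and 0.08 in sclera.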

How the data were processed

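Spot intensity values in the deposited files came from Agilent Feature Extraction (version 11, per the submitters' processing notes), already background-subtracted per the file headers. The authors' deposited series table holds log2 values per probe. How it was scaled is not stated by the labels, and it served as an alternative. Spots of a probe were averaged without flagged outliers, and probes were summed per microRNA. Sums were scaled to each array's 75th percentile over microRNAs detected throughout, given a floor (the lowest detected scaled signal of an array, median of all arrays), then turned into log2 values. A microRNA was tested when called present on 2 of every 3 arrays, or more, in some group. limma 3.58.1 (R 4.3.3; lmFit, eBayes, two-sided) was used with Benjamini-Hochberg adjustment at 0.05. Arms were fitted by tissue, and tissues in 1 fit of 24 arrays in 6 groups. The fits were tested on simulated data. Python 3.11.15, pandas 2.3.3, numpy 2.4.6 and matplotlib 3.10.9 handled tables and figures. The number of sample columns left unmapped was 0.

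Members, lists and tests were chosen with earlier results of these data known. All members are named, and outside the cluster the 5 microRNAs most correlated with each tested member plus the highest, lowest and called examples of each list. The labels do not tie a replicate number to an animal, so the fits are unpaired although arms may share mice. Correlations of the deviations of same-numbered arrays were mixed and ran from -0.22 to 0.49 in whole eye, -0.22 to 0.64 in retina and -0.37 to -0.10 in sclera. Names are those of the array, and the arrays' number limits the precision.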

Additional observations from a re-analysis of the deposited data

Results flagged for a closer look

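No array stood apart from the others of its group by the gap test applied to the 5 tested members in both whole eye groups of 6 arrays (10 groups checked, of which chance alone would mark about 1 in 20). The test did not cover the retina and sclera groups. In sclera titled myopia, negative control spots averaged 117 on replicate 2, against 2.01 on replicate 1 and 1.70 on replicate 3. The part of this in the sclera values was not tested.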

How the results depend on the processing

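The 6 comparisons kept their count of called microRNAs within 1.5 times the reported one in 146 recomputations and moved further in 7. In whole eye the count was 35, against 22 with normexp and 96 (32 higher, 64 lower) with quantile normalization. In retina it was 0, against 51 with all 24 arrays in 6 groups, and 0 to 55 when 1 array was left out. The 55 came without titled control replicate 1, and 1 call came without titled myopia replicate 3. In sclera it was 0, against 2 with all 24 arrays. Whole eye minus retina had 375 calls, against 163 with normexp. The share of higher calls there was 26.1%, against 39.9% with quantile normalization and 43.1% with the percentile over all microRNAs. Between whole eye and sclera it was 56.6%, against 13.2% with normexp, 45.5% with that percentile, 39.7% in the authors' table and 78.4% without scaling, an alternative chosen after seeing the data. With the replicate number as a block, whole eye had 44 higher and 1 lower, and retina and sclera stayed at 0. Among the members, miR-294-3p in whole eye lay at 2.29, against 0.35 with normexp and 1.33 in the authors' table, and 2.20 to 2.41 when 1 array was left out. Retina minus sclera turned sign with normexp for miR-294-3p (-0.30) and miR-291a-3p (-0.87), without scaling for miR-290-5p (1.04) and miR-291b-5p (0.073), and for miR-290-5p read 0 with the software's own gene signal and -0.12 to 0.041 when 1 array was left out. With 1 array left out it was 3.39 to 4.29 for miR-294-3p and 2.47 to 3.35 for miR-291a-3p. miR-290-5p in whole eye minus sclera lay at 1.11, against -1.03 with normexp and 0.11 in the authors' table. Differences near 0 between titled arms also changed sign. In retina miR-291b-5p read 0.045 with the software's gene signal, 0.16 without scaling and 0.038 with all 24 arrays (-0.28 to 0.091 when 1 array was left out). In sclera miR-290-3p read -0.10 with normexp, -0.0090 with the percentile over all microRNAs, and -0.11 both without scaling and with all 24 arrays (-0.22 to 0.53 when 1 was left out), and miR-291b-5p read -0.084 with normexp, -0.081 without scaling and -0.082 with all 24 arrays (-0.27 to 0.58). The normexp alternative adds an offset of 50 to every spot, which shrinks the differences of dim forms. Its share in these shifts, and the cause of the others, was not tested. Signal close to background limits every member here.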
